A study of Homo sapiens with 4 samples.

Results

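The 8 genes TCP1, CCT2, CCT3, CCT4, CCT5, CCT6A, CCT7 and CCT8, which encode the subunits of the chaperonin TRiC, were followed in H9 human embryonic stem cells under CRISPR interference against the long non-coding RNA SNHG26. The members were chosen by gene name from a table of 16174 listed genes, and each of the 8 names matched 1 row. The cells (cell line H9, cell type hESC) carried an integrated TetO-driven dCas9-BFP-KRAB, a Cas9 without nuclease activity fused to a repressor domain, under puromycin selection. The knockdown arm had pooled SNHG26 target guides and the control arm had non-targeting guides. Doxycycline, which switches the repressor on, was given to all 4 libraries, for 2 days or 3 days, with 1 library per arm and day. Each arm therefore has 2 libraries that differ in day, and each day has 2 libraries that differ in guides. The labels do not say that the libraries came from separate cultures, so the p-values measure only the spread between these libraries.

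TRiC, also called CCT, is built of a pair of stacked rings, each with 8 different but related subunits in a fixed order. Nascent proteins fold in its cavity through cycles of ATP binding and hydrolysis, and actin and tubulin are its best known substrates. Prefoldin delivers such substrates to the chaperonin, and phosducin-like proteins act with it as cofactors. Human pluripotent stem cells are known for high levels of TRiC, and raised CCT8 is known to promote its assembly. The genes are described below in the order of the ring, which runs CCT2, CCT4, TCP1, CCT3, CCT6A, CCT8, CCT7, CCT5.

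Promoter sequences from RefSeq (build GRCh38.p14, from 250 bases before to 50 bases after a start) matched 7 of the 8 symbols. They are shown so that the letters near the starts can be set side by side. A link between these letters and the levels of the subunits was not tested. The motifs were chosen with the sequences in view. They were GAANNTTC (a pair of heat shock element units), CCAAT (the CCAAT box), GGGCGG (the GC box), CGGAAGT (the ETS core) and TGACGT (the core of a cyclic AMP response element), each on both strands. Each line below is 30 bases, 5′ to 3′ on the gene's strand, with the motif in capitals, and its name stands at the start of the line.
TCP1, heat shock units, chr6:159789815-159789844, minus strand: tcgtttgaggcGAAGGTTCaacctcttccc
TCP1, ETS core, chr6:159789697-159789726, minus strand: cccggagcctcACTTCCGtcacagtcctgt
CCT2, heat shock units, chr12:69585789-69585818, plus strand: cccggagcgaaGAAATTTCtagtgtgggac
CCT2, ETS core, chr12:69585432-69585461, plus strand: cgtgtggcgtcACTTCCGgcttccttcagt
CCT7, ETS core, chr2:73234234-73234263, plus strand: ccatagagtagCGGAAGTggtccgttctct
CCT3, CCAAT box, chr1:156338309-156338338, minus strand: atgggtgcggtgATTGGcgactaccttgag
CCT8, CCAAT box, chr21:29073694-29073723, minus strand: aagggtgggctaATTGGagagccaggaaga
CCT4, cyclic AMP element core, chr2:61888674-61888703, minus strand: ggacagcctcctACGTCAcgccagcgccgc

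Counting a gene when any of its windows held the letters, GAANNTTC stood in 2 of the 7 genes, TCP1 and CCT2 (at the second of its RefSeq starts), against 8.21% of the 27305 genes with a window. CGGAAGT stood in 3 of the 7 (TCP1, CCT2 and CCT7) against 8.18%. CCAAT stood in 4 against 39.7%, GGGCGG in 5 against 48.3%, and TGACGT in CCT4 alone against 9.64%. CCT2 and CCT4 have 2 windows each. Per window the shares over all 35116 were 6.77% for GAANNTTC and 6.83% for CGGAAGT. The CCT5 window held none of these letters. A match describes the sequence only. Because the motifs were chosen with these sequences in view, the shares over all genes are no test of enrichment. By listed coordinates the GAANNTTC match of TCP1 lies inside MRPL18, which starts at 159789812 on the opposite strand.

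The libraries were PCR-amplified oligo-dT cDNA read as long nanopore reads, and the labels name no molecular identifiers. Placing each read on the full listed span gave upper bounds from 947338 to 1220265 reads per library. SNHG26 itself was listed at 0 and 0.933 TPM (a length-scaled share of the library) with its guides on day 2 and day 3 and at 2.98 and 4.03 TPM with control guides. Of 8 markers of primed stem cells fixed for the check, 7 were listed and 6 averaged 1 TPM or more, while ZIC2 was listed at 0. Their summed level ran from 1428 to 1615 TPM, most of it POU5F1 (mean 1126 TPM) and SOX2 (mean 264.3 TPM). Of the 6 fibroblast markers 3 were listed, with a summed level from 7.95 to 11.9 TPM. Only 3 of 6 mesendoderm, 1 of 4 neuroectoderm and 1 of 5 amnion or trophectoderm markers were listed. The highest of these had a mean of 0.494 TPM, and the unlisted ones could not be checked. Mitochondrial genes took 18.5% of the listed TPM in the knockdown library of day 3 and from 23.2% to 25.9% in the other libraries, which lowers or raises the share left to all nuclear genes.

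Together the 8 subunits took from 0.101% to 0.121% of the listed TPM, and their sum differed between days by less than the spread within a day. In bulk RNA of this kind, fewer cells of a type and less RNA per cell cannot be told apart. The sum was 1049 TPM on day 2 and 1155 TPM on day 3 with SNHG26 guides, and 1070 TPM and 968.4 TPM with control guides. The means of the arms were 1102 ± 74.9 and 1019 ± 72.2 TPM (SD, n = 2), a log2 ratio of 0.11 that is smaller than the gap between days within either arm. Day 3 over day 2 gave a log2 ratio of 0.0026, from 0.14 with SNHG26 guides and -0.14 with control guides. As a percentage of the nuclear TPM the sum was 0.143% and 0.149% with SNHG26 guides and 0.150% and 0.137% with control guides.

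**Figure D1:**
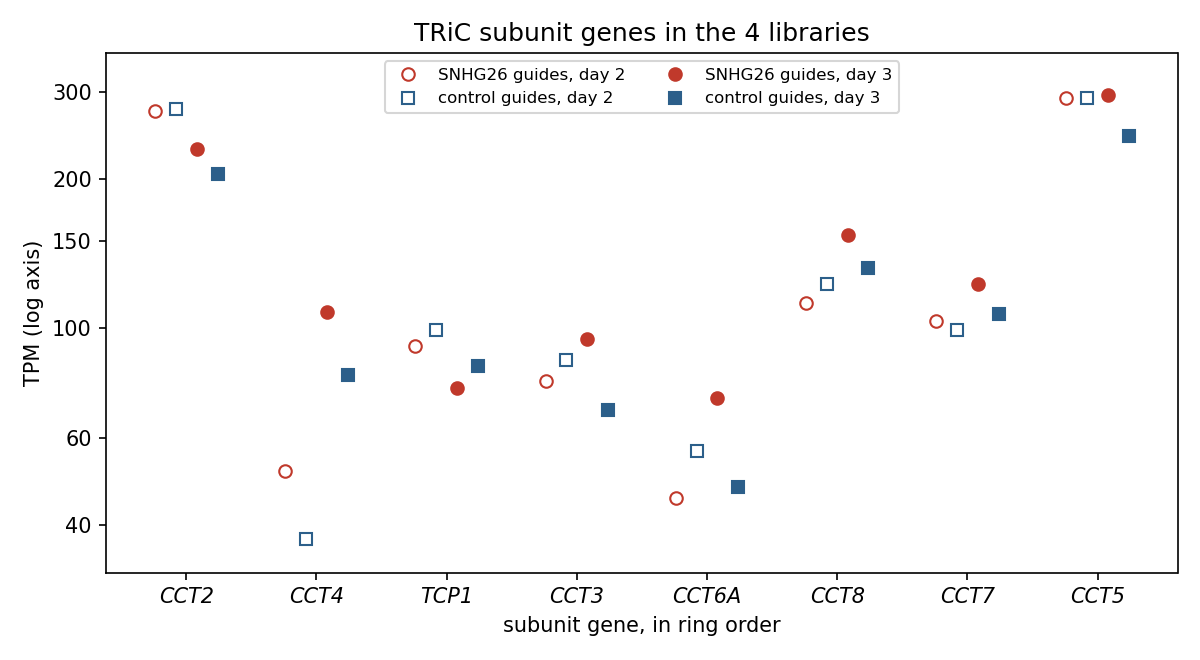
TPM (log axis) of each subunit gene in each of the 4 libraries, in ring order; open symbols are day 2 and filled symbols day 3, circles SNHG26 guides and squares control guides. CCT4 is the gene whose day 3 libraries stand farthest above its day 2 libraries, from 37.5 and 51.3 to 80.3 and 107.9 TPM.

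The subunit genes were far from equal in level. TPM in this table divides reads by the genomic span of a transcript, introns included, so a level compared between genes is per span. On that scale CCT5 was highest, with a mean of 281.1 ± 24.6 TPM (SD over 4 libraries), followed by CCT2 (246.8 ± 35.6), CCT8 (130.5 ± 18.03), CCT7 (108.0 ± 10.3), TCP1 (87.7 ± 10.2), CCT3 (81.9 ± 11.3), CCT4 (69.2 ± 31.3) and CCT6A (55.4 ± 11.9). Between neighbours in this order the ranges over the libraries separated only CCT2 from CCT8. CCT5 stood above CCT2, CCT2 above CCT8 and CCT8 above CCT7 in 4 of 4 libraries, while the order among TCP1, CCT3, CCT4 and CCT6A changed from library to library. Within a library the highest subunit was 6.43 times the lowest on day 2 and 4.12 times on day 3 with SNHG26 guides, and 7.79 and 5.11 times with control guides.

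Reads give another scale, since 1 long read stands for 1 amplified cDNA whatever its span. Reads were estimated by placing all of a gene's TPM on 1 main transcript. This was the protein-coding transcript of support level 1 in GENCODE release 29 with the longest genomic span. A shorter transcript would give fewer reads and wider counting intervals. The estimate for CCT5 ran from 599.6 to 749.1 reads and that for CCT6A from 76.8 to 136.3. On these spans CCT5 and CCT2 again led, with 25.1% ± 1.38 and 21.8% ± 3.25 of the reads of the 8 genes (SD over 4 libraries). CCT3 moved from place 6 to place 3, at 13.0% ± 0.876 of the reads against 7.70% ± 0.538 of the TPM, its main transcript having the longest span of the 8 (29498 bases). The place of CCT3 depends on the span used, since its listed span is 58906 bases. On the listed spans CCT3 had from 599.9 to 856.7 reads, above CCT2 in 4 of 4 libraries and above CCT5 in 3 of 4. CCT6A was lowest on both scales, at 3.68% ± 0.535 of the reads. An equal share would be 12.5%.

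**Figure D2:**
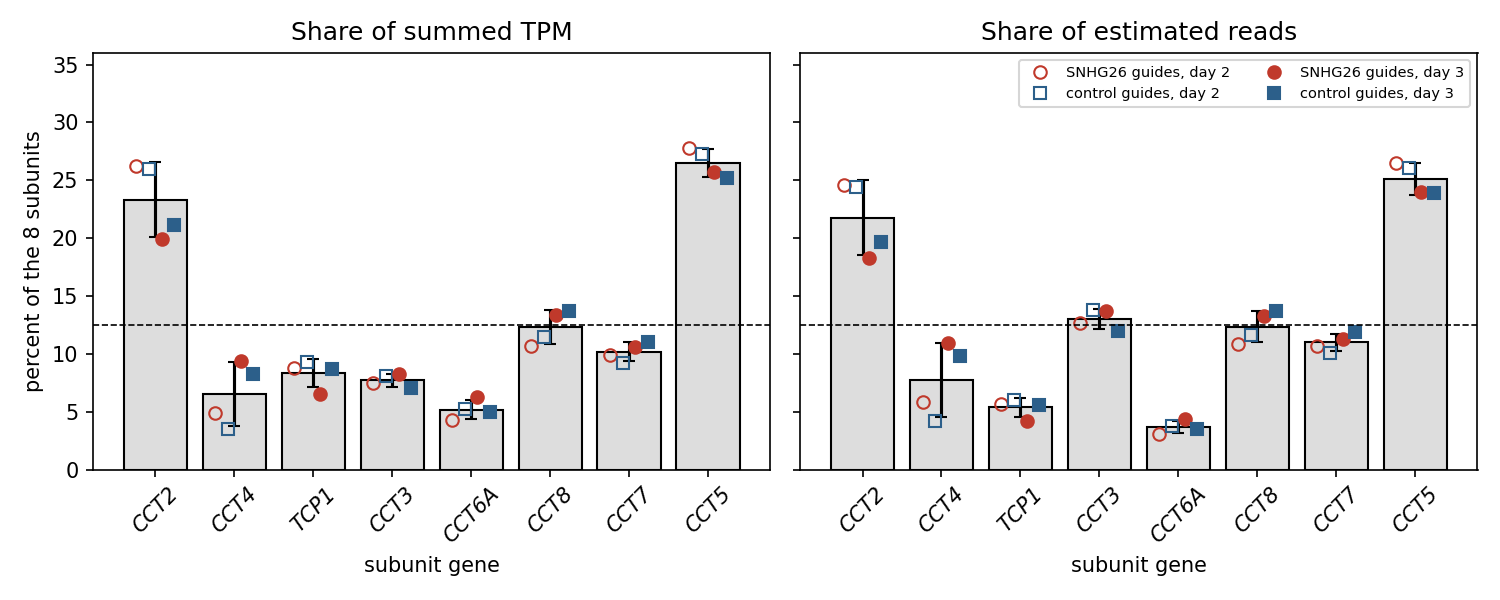
Share of each subunit gene (percent of the 8) in summed TPM, left, and in estimated reads, right; bars are means and error bars SD over the 4 libraries, points are libraries and the dashed line is an equal share of 12.5%. CCT5 and CCT2 exceed the equal share in TPM and in reads on the main transcripts, and CCT4 has a higher share on day 3 than on day 2 in both arms.

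The guide comparison asked whether repressing SNHG26 changed the subunit genes. None of the 8 passed an adjusted p of 0.05 in limma, where 0 of 8274 tested genes passed (percent of genes called 0) and 337 (4.07%) had an unadjusted p under 0.05. Of the 8 subunits, 0 had an unadjusted p under 0.05. Their changes on log2(TPM + 1), SNHG26 guides minus control guides, ran from -0.13 for TCP1 to 0.43 for CCT4, with a median of 0.13. The median over all tested genes was 0.04. Over the 1145 genes averaging 50 TPM or more, as each subunit does, it was 0.106. For no subunit were both libraries of 1 arm above both of the other, whereas 16.1% of tested genes were higher and 13.2% lower without overlap.

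On day 3 the knockdown library stood higher in 7 of the 8 genes, TCP1 being the exception, and on day 2 in 2 of the 8 (CCT4 and CCT7). CCT4 and CCT7 were thus higher on both days, as were 24.8% of tested genes. The shares of tested genes higher on day 3 alone or day 2 alone were not computed, so those counts stand without a background. The guide change of day 3 minus that of day 2 had a median of 0.23 for the subunits. It was 0.0991 over all tested genes and 0.16 over the genes averaging 50 TPM or more. On day 2 the guide change ran from -0.31 (CCT6A) to 0.44 (CCT4), and on day 3 from -0.15 (TCP1) to 0.58 (CCT6A). The knockdown library of day 3 held the highest value of the 4 for 6 subunits (CCT3, CCT4, CCT5, CCT6A, CCT7 and CCT8), while 28.1% of tested genes were highest there. With quantile, median ratio or nuclear rescaling it was 5, CCT5 no longer being highest there. That library is also the one with the lowest mitochondrial share, and the part of that share in these levels was not tested. Rescaling to nuclear genes, which shifts all nuclear genes of a library alike, gave a median guide change of 0.0453 for the subunits and -0.04 for all tested genes, against 0.13 and 0.04 as deposited. The crossed contrast set the guide change of day 3 against that of day 2, and the adjusted p in limma was at least 0.961 for each subunit. With 1 library per arm and day, the spread in this contrast comes from the guide and day differences themselves. Its p-values therefore cannot tell a guide change that differs between days from the spread of single libraries. Of 8274 genes 8 passed (0.0967%) and 291 (3.52%) had an unadjusted p under 0.05, of which 0 were subunits.

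**Figure D3:**
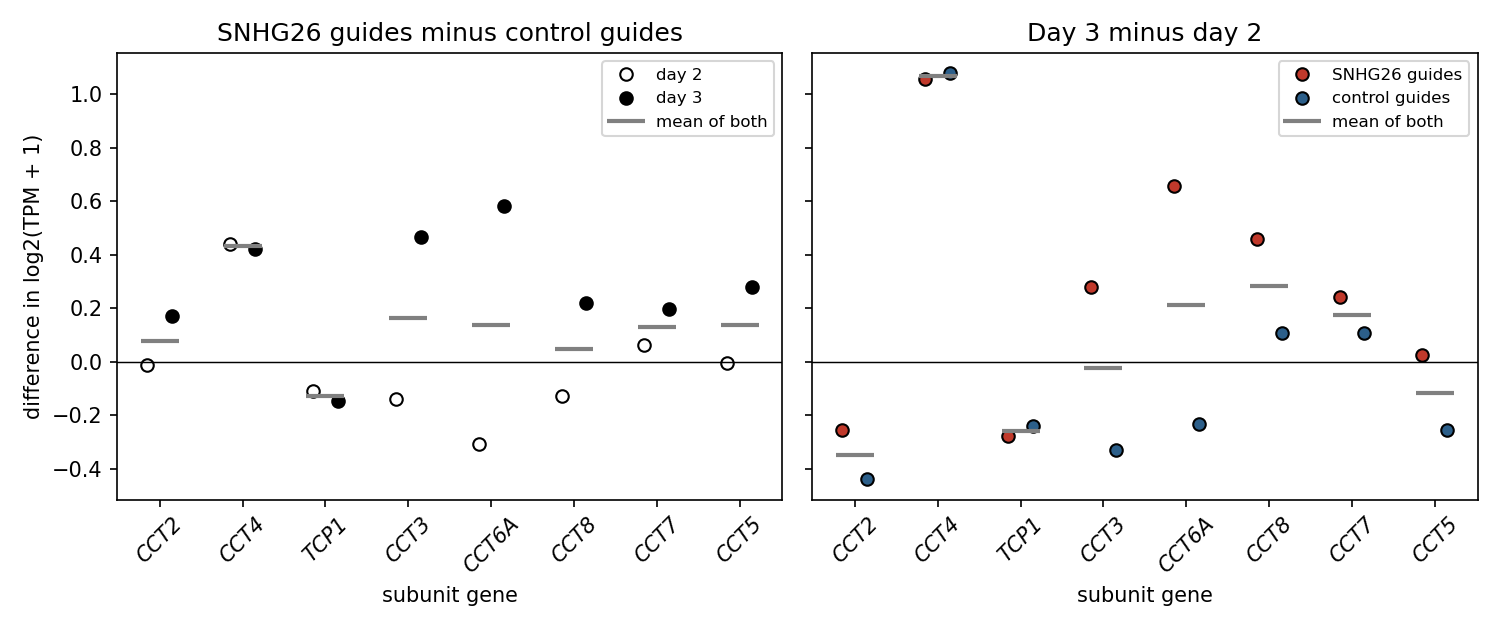
Differences in log2(TPM + 1) for each subunit gene: left, SNHG26 guides minus control guides on day 2 (open) and day 3 (filled); right, day 3 minus day 2 with SNHG26 guides (red) and control guides (blue); gray bars are the mean of both. CCT4 is 1.06 and 1.08 higher on day 3, and CCT6A, CCT3 and CCT5 move in opposite directions in the arms.

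Between day 2 and day 3 no subunit passed the adjusted threshold either. Of 8274 tested genes 3 passed (0.0363%) and 547 (6.61%) had an unadjusted p under 0.05, and among the 8 subunits CCT4 alone had one, in the direction that 3.44% of tested genes shared. CCT4, CCT7 and CCT8 were higher in both day 3 libraries than in both day 2 libraries, as were 17.1% of tested genes. CCT2 and TCP1 were lower in both, as were 18.4%. CCT3, CCT5 and CCT6A overlapped. The exact two-sided permutation p was 0.333 for each of the 5 genes without overlap, the smallest that 2 libraries against 2 allow.

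CCT2, the beta subunit, lies on chromosome 12 (plus strand, 69585426 to 69601570, build GRCh38). It was listed at 275.1 and 277.6 TPM on day 2 (SNHG26 and control guides) and at 230.2 and 204.5 TPM on day 3. The day 2 libraries were nearly equal and both stood above the day 3 libraries. The day change was -0.35 (SE 0.14), with a limma adjusted p of 0.76 (unadjusted 0.0737), and its share of the summed TPM of the 8 went from a mean of 26.1% to 20.5%. Its guide change was 0.08 (SE 0.23), from -0.01 on day 2 and 0.17 on day 3.

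CCT4, the delta subunit and the neighbour of CCT2 in the ring, lies on chromosome 2 (minus strand, 61868085 to 61888671, build GRCh38). It was listed at 51.3 and 37.5 TPM on day 2 (SNHG26 and control guides) and at 107.9 and 80.3 TPM on day 3. Both day 3 libraries stood above both day 2 libraries, and on each day the knockdown library was above the control library. The day means were 44.4 ± 9.77 and 94.1 ± 19.5 TPM (SD, n = 2), a ratio of 2.12. The day change was 1.07 (SE 0.28), with 1.06 under SNHG26 guides and 1.08 under control guides, and the limma adjusted p was 0.583 (unadjusted 0.0189). Among the 1145 genes averaging 50 TPM or more it ranked 28 by the size of the increase. Of those genes 12 (1.05%) were higher by at least 1 log2 unit in both arms, and 5.24% differed by that much either way in the mean. It was called under none of the alternative settings, where its adjusted p in limma ran from 0.375 to 0.743.

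As a share of the 8 subunits, which does not depend on a scaling factor per library, CCT4 went from 4.89% to 9.34% with SNHG26 guides and from 3.501% to 8.29% with control guides. The guide change of CCT4 was 0.43 (SE 0.56), with 0.44 on day 2 and 0.42 on day 3. With day as a block the SE was 0.23 and the limma adjusted p 0.908. Without the knockdown library of day 3 the change was -0.0970 and without the control library of day 2 it was -0.11, fits in which the days are unequally held by the arms, so that the day difference enters them.

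The depth behind CCT4 sets how firmly its day difference can be read. With all of it on the main transcript, its TPM stood for an estimated 145.7 and 342.1 reads under SNHG26 guides (day 2, then day 3) and 96.6 and 247.6 under control guides. Exact 95% Poisson intervals, which cover counting error only, were 43.4 to 60.4 and 96.7 to 119.9 TPM on day 2 and day 3 with SNHG26 guides. They were 30.5 to 45.9 and 70.7 to 91.1 TPM with control guides, so the days did not overlap in either arm. GENCODE lists 4 transcripts of CCT4, however, of which the shortest spans 511 bases. On that span 1 read is worth from 12.8 to 15.7 TPM, and the difference between days equals 4.43 such reads with SNHG26 guides and 3.26 with control guides. Which transcripts were counted is not given in the sources used here, so the part of transcript choice in that difference was not tested.

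TCP1, the alpha subunit, lies on chromosome 6 (minus strand, 159778498 to 159789703, build GRCh38). Levels of TCP1 were 91.9 and 99.2 TPM on day 2 (SNHG26 and control guides) and 75.6 and 83.9 TPM on day 3. Both day 3 libraries were lower, and the knockdown library was the lower on each day. The day change was -0.26 (SE 0.17, limma adjusted p 0.76) and the guide change -0.13 (SE 0.23, limma adjusted p 0.993). It was the only subunit with a negative guide change on the deposited scale.

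CCT3, the gamma subunit, lies on chromosome 1 (minus strand, 156308968 to 156367873, build GRCh38). Levels of CCT3 were 78.1 and 86.1 TPM on day 2 (SNHG26 and control guides) and 94.99 and 68.4 TPM on day 3. The day 3 libraries were at once the highest and the lowest. Its day change was -0.02 (SE 0.24), made of 0.28 with SNHG26 guides and -0.33 with control guides, and the crossed contrast gave 0.61 (SE 0.42), with a limma adjusted p of 0.961 (unadjusted 0.219). CCT6A, the zeta subunit, which has a testis-enriched relative in CCT6B, lies on chromosome 7 (plus strand, 56051685 to 56063989, build GRCh38). It was listed at 45.3 and 56.3 TPM on day 2 and at 72.0 and 47.8 TPM on day 3. The knockdown library of day 3 was the highest, above the other 3, and the crossed contrast gave 0.89 (SE 0.48), with a limma adjusted p of 0.961 (unadjusted 0.138). CCT6B was listed at 0 TPM in all 4 libraries.

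CCT8, the theta subunit tied to assembly of the complex in pluripotent cells, lies on chromosome 21 (minus strand, 29055805 to 29073797, build GRCh38). Levels of CCT8 were 112.2 and 122.8 TPM on day 2 (SNHG26 and control guides) and 154.6 and 132.4 TPM on day 3. Its day 3 libraries were higher without overlap, with a day change of 0.28 (SE 0.17, limma adjusted p 0.76). CCT7, the eta subunit, lies on chromosome 2 (plus strand, 73233420 to 73253021, build GRCh38). It was listed at 103.5 and 99.0 TPM on day 2 and at 122.7 and 106.8 TPM on day 3, and it was the subunit closest to the mean pattern of the 8. Its day change was 0.18 (SE 0.17, limma adjusted p 0.778).

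CCT5, the epsilon subunit and the highest of the 8, lies on chromosome 5 (plus strand, 10249929 to 10266389, build GRCh38). Levels of CCT5 were 291.3 and 292.0 TPM on day 2 (SNHG26 and control guides) and 296.7 and 244.3 TPM on day 3. Only the control library of day 3 stood apart, below the others. Its day change was -0.12 (SE 0.16) and its guide change 0.14 (SE 0.17, limma adjusted p 0.961). Its share of the summed TPM stayed between 25.2% and 27.8%.

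The genes adjoining the subunits were compared because they share starts or ends with them. By the listed coordinates, 5 of the 8 subunits (TCP1, CCT4, CCT5, CCT6A and CCT7) had a gene on the opposite strand starting within 1 kb upstream, against 11.2% of 13693 listed protein-coding genes. From the listed starts the gaps were 31 bases for CCT5 and ATPSCKMT, 52 for CCT4 and COMMD1, 80 for CCT6A and PSPH, 108 for TCP1 and MRPL18 (a mitochondrial ribosomal protein gene) and 180 for CCT7 and PRADC1. The RefSeq start behind the CCT7 promoter window lies downstream of its listed start, inside the listed gene. The gap for CCT7, and so its place among the 5, depends on the start used. The CCT3 promoter window (156338309 to 156338338) also lies inside its listed gene, which starts at 156367873 on the minus strand. CCT3 was judged at that listed start only. The partners were mostly much lower than the subunits on the per-span scale. COMMD1 stood at 1.25 and 1.70 TPM with SNHG26 guides and at 1.07 and 1.08 TPM with control guides, with a day change of 0.13 (SE 0.46) beside that of 1.07 for CCT4. The gap was smaller in reads, since COMMD1 spans 258524 bases. On that span it had 44.2 and 67.1 reads with SNHG26 guides and 34.6 and 41.5 with control guides. The estimates for CCT4 were 145.7 and 342.1, and 96.6 and 247.6. MRPL18 stood at 81.4 and 80.2 TPM and at 95.8 and 68.3 TPM. It was lower in both day 3 libraries, as were 18.4% of tested genes, with a day change of -0.25 (SE 0.20, limma adjusted p 0.76). That change was -0.02 with SNHG26 guides and -0.48 with control guides, beside -0.28 and -0.24 for TCP1. PRADC1, at 3 to 6 reads per library, was also lower without overlap, while its partner CCT7 was higher.

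At its other end TCP1 overlaps ACAT2, which makes a cytosolic acetoacetyl-CoA thiolase of the mevalonate route, by 615 bases on the opposite strand. ACAT2 was listed at 161.4 and 137.1 TPM on day 2 (SNHG26 and control guides) and at 58.6 and 25.01 TPM on day 3. Its day 3 libraries were far below its day 2 libraries, with a day change of -1.93 (SE 0.47) and a limma adjusted p of 0.529 (unadjusted 0.0151). Whether counting used strand is not given in the sources used here, so reads in the shared bases could count for either gene, and their part in the lower TCP1 level was not tested. SNORA15, a small nucleolar RNA within CCT6A on the same strand, had 1 read in the knockdown library of day 3, which its length of 133 bases turns into 49.1 TPM, and was listed at 0 in the others. TSACC, which lies within the listed span of CCT3 on the opposite strand, had a mean of 1.47 TPM. SUMF2 begins 12 bases after CCT6A on the same strand, and it stood at 6.97 and 10.2 TPM with SNHG26 guides and at 7.19 and 7.78 TPM with control guides.

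**Figure D4:**
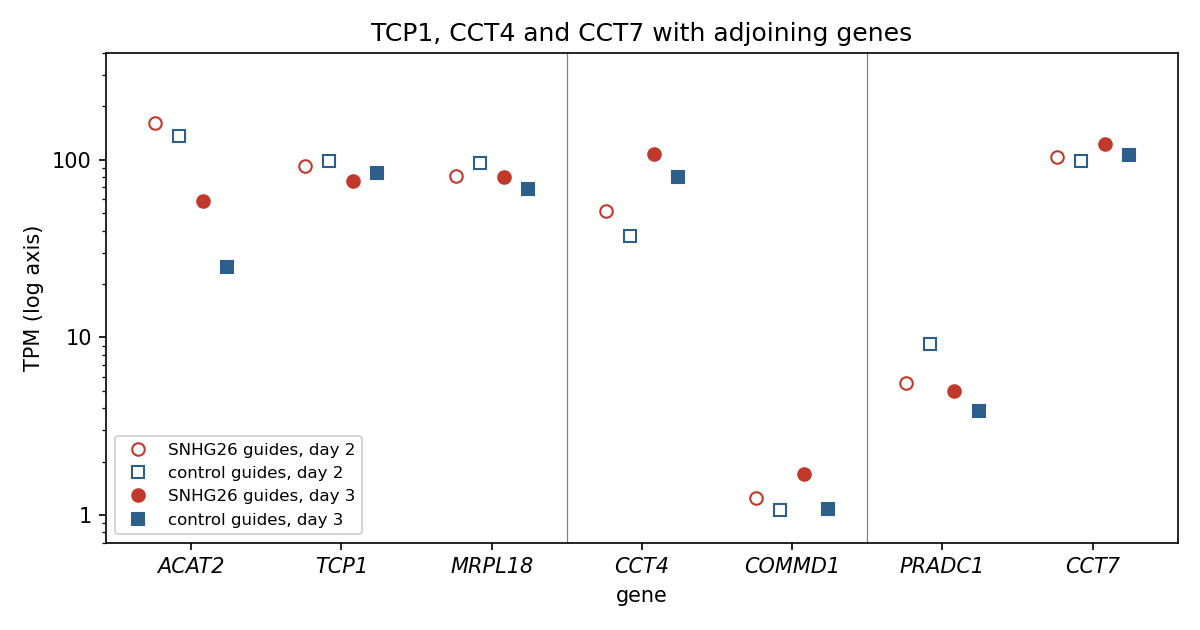
TPM (log axis) of TCP1, CCT4 and CCT7 and of genes that adjoin them, in each library; open symbols are day 2 and filled symbols day 3, circles SNHG26 guides and squares control guides. ACAT2, which overlaps the end of TCP1, ranges from 25.01 to 161.4 TPM, while TCP1 ranges from 75.6 to 99.2 TPM.

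Pseudogenes that resemble the subunits' mRNAs could draw reads from them, and 4 were listed. CCT8P1 had 0 and 2 reads with SNHG26 guides on day 2 and day 3 and 6 and 2 with control guides. CCT6P2 had 1 and 4 reads and then 1 and 0, CCT5P2 had 1 read in the knockdown library of day 3, and CCT6P3 reached 0.184 TPM in the control library of day 3. Beside the estimated 267.1 reads of CCT8 and 76.8 reads of CCT6A in their lowest libraries these are few. A split of reads between parent and copy was not tested, and other copies were not analysed here.

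Proteins that work with TRiC were taken from lists drawn up by function. Of 12 tested prefoldin and phosducin-like partners, 0 passed in either direction between guides (0 with an unadjusted p under 0.05) or between days (also 0). Their median guide change was 0.14, beside 0.13 for the subunits and 0.04 for all tested genes. PFDN5, a prefoldin subunit and the highest of the list, stood at 112.3 and 99.99 TPM with SNHG26 guides and at 109.1 and 94.5 TPM with control guides. PFDN6 stood at 104.8 and 96.5 TPM and at 107.8 and 60.9 TPM. UXT, a prefoldin-like protein, stood at 73.1 and 99.1 TPM and at 80.5 and 69.1 TPM. PFDN5 and PFDN6 were both lower on day 3, with day changes of -0.19 (SE 0.16) and -0.47 (SE 0.28) that did not pass.

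Among the substrates, the highest actin and tubulin mRNAs stood far above the chaperonin genes on the per-span scale. The means were 3295 TPM for ACTG1, 3144 TPM for ACTB and 2902 TPM for TUBA1B. Other genes of the list lay within or below the range of the subunits. The lowest had a mean of 10.6 TPM, against 55.4 TPM for CCT6A. The 14 genes summed to 11344 and 13631 TPM with SNHG26 guides and to 11465 and 10488 TPM with control guides, so the knockdown library of day 3 was the highest here as well. None of the 14 passed in either comparison, and none had an unadjusted p under 0.05. Without overlap between arms, 7 of the 14 were higher with SNHG26 guides, against 16.1% of tested genes, and 1 was lower, against 13.2%. They were not tested as a set. Their median guide change was 0.16 and their median day change 0.16. ACTG1 and ACTB, the cytoplasmic actins, had guide changes of 0.13 (SE 0.15) and 0.26 (SE 0.17), and TUBA1B, an alpha-tubulin, had 0.18 (SE 0.14).

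Of 8 other reported substrates that could be tested, 0 passed in either comparison, and 1 had an unadjusted p under 0.05, between days, as did 6.61% of all tested genes. PLK1, a mitotic kinase, was listed at 53.3 and 50.4 TPM on day 2 (SNHG26 and control guides) and at 84.2 and 79.8 TPM on day 3. The day 3 libraries were higher in both arms, with a day change of 0.65 (SE 0.17) and a limma adjusted p of 0.595. CDC20, an activator of the anaphase-promoting complex that TRiC folds, stood at 140.1 and 152.2 TPM on day 2 and at 249.1 and 173.4 TPM on day 3, with a day change of 0.51 (SE 0.24, limma adjusted p 0.76). MLST8, a subunit of the mTOR complexes, had a day change of 0.68 (SE 0.31, limma adjusted p 0.76). These 3 were the members of the list higher on day 3 without overlap, as were 17.1% of all tested genes, and 1 member, HDAC3, was lower without overlap, with a day change of -0.75 (SE 0.42, limma adjusted p 0.76).

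Tubulin cofactors act on tubulin after it leaves TRiC, and 3 of the 5 could be tested. None passed between guides, and 1, TBCC, had an unadjusted p under 0.05, as did 4.07% of all tested genes. Between days 0 passed or had an unadjusted p under 0.05, and 2 of the 3, TBCB and TBCA, were lower on day 3 without overlap, as were 18.4% of all tested genes. TBCC was listed at 72.6 and 69.1 TPM with SNHG26 guides and at 25.01 and 37.6 TPM with control guides. The knockdown libraries were higher on both days, with a guide change of 1.18 (SE 0.29) and a limma adjusted p of 0.865 (unadjusted 0.0150). TBCB and TBCA had guide changes of 0.02 and 0.23. Of 4 tested chaperonin relatives 0 passed or had an unadjusted p under 0.05 in either comparison. HSPE1 and HSPD1, which form the mitochondrial chaperonin, had means of 577.9 and 161.0 TPM, with guide changes of 0.16 (SE 0.15) and 0.07 (SE 0.23). BBS10, another chaperonin-like protein, had a mean of 4.51 TPM and a guide change of -0.07 (SE 0.40). MKKS, a chaperonin-like protein of the BBSome pathway, had a guide change of 0.59 (SE 0.42) at a mean of 2.44 TPM.

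**Figure D5:**
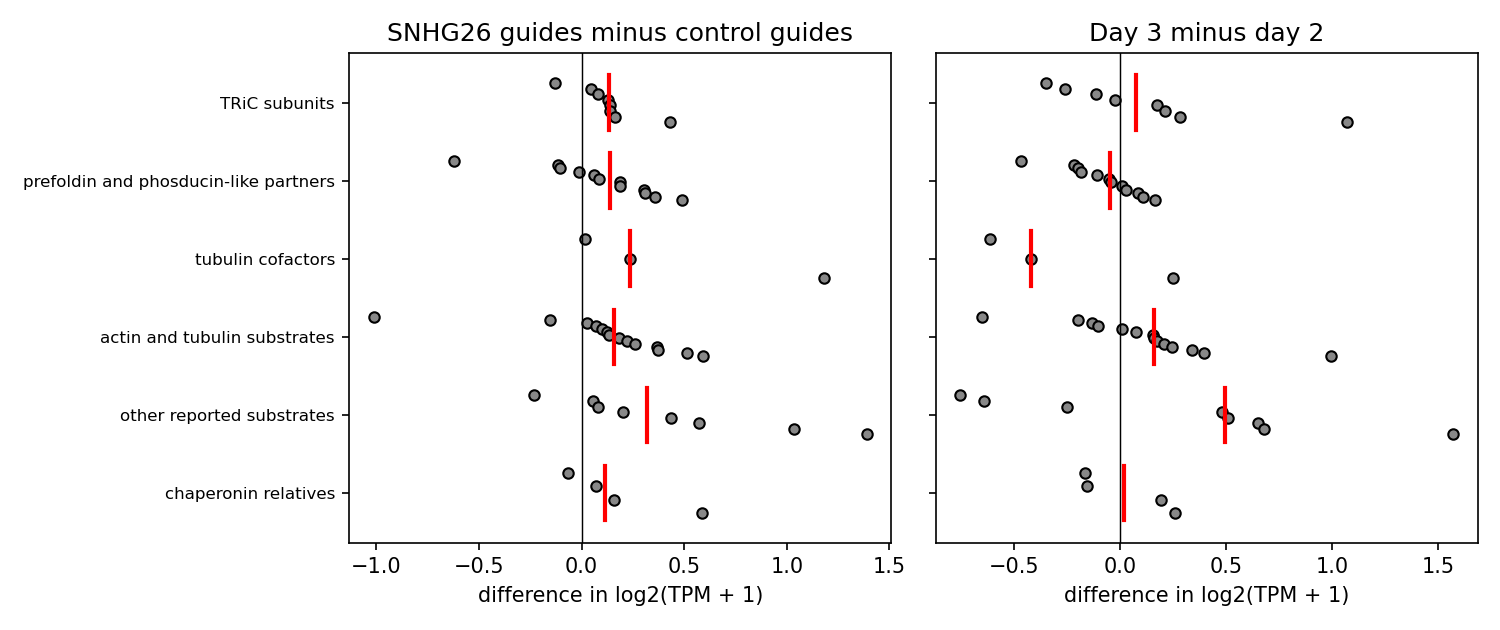
Differences in log2(TPM + 1) of the tested genes in each list, SNHG26 guides minus control guides on the left and day 3 minus day 2 on the right; each point is a gene and red lines are medians. The medians of the subunits are 0.13 and 0.08, and CCT4 is the subunit farthest to the right in both panels.

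The mean pattern of the 8 subunits over the libraries, as deviations of log2(TPM + 1) from each gene's own mean, was -0.07 and 0.20 with SNHG26 guides and -0.05 and -0.07 with control guides. On this deposited scale only the knockdown library of day 3 departed from the rest, and it has the lowest mitochondrial share. As a percentage of nuclear TPM the sum was 0.143% and 0.149% with SNHG26 guides. With control guides it was 0.150% and 0.137%, so the control library of day 2 was then the highest. The control mean of day 3 also averages CCT4, higher there than on day 2, with CCT2 and TCP1, which were lower. Of 1137 other genes averaging 50 TPM or more, the closest over the 4 libraries by root mean square difference were SKP1 (0.00867), ATP5MC1 (0.0207), RPL30 (0.0234), RPS15 (0.0240) and NDUFS5 (0.0243). Such likeness was common, since 232 of the 1137 lay within 0.1. Among the subunits themselves CCT7 lay at 0.0486 and CCT8 at 0.0894, while CCT2 and TCP1 lay at 0.24 and CCT4 lay farthest at 0.503.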

How the data were processed

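TPM values were deposited by the authors in a single gene table, 1 column per library, from nanopore cDNA sequencing of poly(A) RNA. The submitters' processing notes name minimap2 2.24-r1122 and GRCh38. The counting tool, annotation release and filters are not given in the sources used here. With 1 read unit per library, all 13 mitochondrial mRNAs came out as whole reads within 0.01 read over the gene's span, which gave the TPM worth of 1 read. Reads of the subunits are estimates on the protein-coding transcript of support level 1 with the longest genomic span in GENCODE release 29.

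Changes are on log2(TPM + 1), which understates changes of low genes. The 8274 genes averaging 1 TPM or more were fitted in limma 3.58.1 (R 4.3.3; lmFit, trended eBayes, Benjamini-Hochberg, threshold 0.05) for guides, days and their crossed contrast, with no block. The script was tested on simulated data. The members and lists were chosen with earlier results of these data known. Named genes are the 8 members, from each list the 3 with the highest mean TPM and any with an unadjusted p under 0.05, genes within 1 kb of a member, subunit pseudogenes, and the 5 genes most alike in pattern. TBCB, TBCA, MKKS, HDAC3 and CCT6B were named after their values were seen. Alternatives were 2 other pseudocounts, 3 other filters, quantile and median ratio scaling, a fit with no trend, the replicate block and leaving out each library. Rescaling to nuclear genes was chosen after seeing the data.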

Additional observations from a re-analysis of the deposited data

How the results depend on the processing

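No subunit passed the adjusted threshold under any alternative run, over 296 recomputed values of 24 subunit results; the lowest adjusted p in limma was 0.333. With 2 libraries in each group, 1 to a day and arm, depth and replication limit every value. The replicate block (day in the guide fit, guide arm in the day fit) changed no call on a subunit. With 1 library per arm and day it cannot move a change, so CCT4 stayed at 1.07 between days. Its limma adjusted p was then 0.66. Same-day libraries share only the label of their day, and their deviations from the arm means correlated at 0.0464 over 8274 genes. The block could not be fitted for the crossed contrast.

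Signs turned in 16 of these values. The filters, the fit with no trend and the replicate block cannot move a change, so no sign could turn under them. In fits without 1 library the days are unequally held by the arms, so guide and day differences enter each other. With rescaling to nuclear genes the guide change was -0.0107 for CCT2 and -0.0421 for CCT8, with quantile normalization it was -0.0081 for CCT8 and the crossed contrast of CCT7 was -0.0376. Leaving out 1 library moved the guide change from -0.27 to 0.0114 for TCP1, from -0.14 to 0.30 for CCT2, from -0.11 to 0.97 for CCT4, from -0.19 to 0.47 for CCT6A and from -0.18 to 0.28 for CCT8. It kept its sign but moved from 0.00016 to 0.33 for CCT3, from 0.0095 to 0.27 for CCT5 and from 0.0089 to 0.25 for CCT7, and the log2 ratio of the summed TPM between guides moved from 0.0409 to 0.186. The day change ran from -0.26 to 0.21 for CCT3, from -0.25 to 0.0245 for CCT5, from -0.0786 to 0.504 for CCT6A and from 0.85 to 1.29 for CCT4. The median guide change ran from 0.0102 to 0.26 and the median day change from -0.13 to 0.24.

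Over all genes the guide comparison called 0 under each alternative. The 3 genes called between days became 0 with either pseudocount, no filter, at least 50 TPM, a fit with no trend, quantile normalization, the replicate block and without any 1 library (0 to 0). The 8 of the crossed contrast became 14 with a pseudocount of 0.1, 13 with at least 5 TPM, and 0 with a pseudocount of 5, no filter, at least 50 TPM or a fit with no trend. The cause was not tested.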
